A study of Mus musculus with 12 samples.

Results

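The genes described here are 10 members of the Notch pathway: the receptors Notch1, Notch2 and Notch3, the glycosyltransferase gene Lfng, the ligands Jag1 and Jag2, and the target genes Hes1, Hey1, Hey2 and Heyl. They were chosen by name, and each was read from the row of the deposited table that carries its gene symbol. All 10 were found, among 30702 named genes, and each had 1 transcript cluster, the array's unit for a locus. RNA had been measured on the Affymetrix Mouse Transcriptome Array 1.0 in fetal mouse gonads taken 14.5 days post coitum (dpc), with 4 arrays in each of 3 groups and a pair of gonads from 1 embryo, freed of the mesonephros, on each array. The groups were XY control and XX control, both Rosa26+/+; Sf1-Cre+/Tg, and XY FOXL2+, which carried Rosa26-CAG-LSL-Foxl2+/f together with Sf1-cre+/Tg. All embryos thus carried the Sf1-Cre transgene, which acts in somatic cells that express Nr5a1 (SF1), and the XY FOXL2+ embryos also carried 1 Rosa26 allele from which Cre releases Foxl2 under the CAG promoter. The background was mixed 129Sv and C57Bl/6J. Values are log2 signals as deposited, so that a difference of 1 is a 2-fold change if the base of the logarithm is 2, as was assumed.

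Notch receptors sit in the cell surface and are switched on by Jagged or Delta ligands on a neighbouring cell. Cleavage then frees the intracellular part of the receptor, which joins the DNA-binding protein RBPJ in the nucleus and turns on Hes and Hey genes, themselves transcriptional repressors. In the fetal testis the pathway is known for holding interstitial cells as progenitors of Leydig cells, in the ovary for signalling between germ cells and granulosa cells, and in both for its part in blood vessels and their mural cells. FOXL2 is the transcription factor that marks granulosa cells, and the comparison asks what happens in an XY gonad whose somatic cells are made to express it.

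The targeted gene followed the labels. Foxl2 read 5.07, 5.55, 5.44 and 5.33 in XY controls, 7.67, 8.62, 7.18 and 6.72 in XY FOXL2+ and 8.08, 7.30, 7.14 and 7.39 in XX controls. The XY FOXL2+ arrays were all above the XY controls, by 2.2 on average (SE 0.33, limma adjusted p = 0.00122, exact permutation p = 0.0286, the smallest that 4 against 4 arrays allow, two-sided). Xist, and on the Y chromosome Eif2s3y, Kdm5d and Uty, separated the 4 XX arrays from the 8 XY arrays. Where such genes should be silent they read 5.99 to 7.07 on average, so a level near 7 or below is not shown to be above background. Foxl2 in XY controls, at 5.35 ± 0.21 (SD, n = 4), is at such a level, and the size of its difference is therefore not exact. On principal components XY FOXL2+ replicate 1 stood apart from the other arrays on the second (-76.9 against -22.1 to 22.6), and replicates 3 and 4 stood apart together on the third (-49.7 and -44.2 against -12.7 to 35.6). The results below were also computed without replicate 1, without replicates 1 and 2, and without replicates 3 and 4. The labels name neither litter nor batch.

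Of the 10 genes, 7 fell in XY FOXL2+ gonads against XY controls (adjusted p below 0.05 over all 65956 clusters), none rose and 3 did not pass. Over all clusters 4.67% were called lower and 2.46% higher in this comparison. The shares were larger among the 32978 clusters above the median signal, which include all 10 genes. Fitted alone, 3204 of these were lower and 1677 higher, and 7 of the 10 genes were lower. The genes that fell were Jag1, Heyl, Notch3, Hey2, Notch2, Lfng and Notch1, in order of size, and Hes1, Hey1 and Jag2 did not pass. The median difference of the 10 genes was -0.63, against 0.0031 over all clusters. In XX controls against XY controls, which share the XY arrays with the first comparison, 7 were lower, Jag2 was higher, and Hes1 and Hey1 did not pass, where 10.2% of all clusters were lower and 7.17% higher. Among the 32978 clusters above the median signal 6259 were lower and 4513 higher, with 7 of the 10 genes lower and 1 higher. The median of the 10 genes was -0.69, against -0.033 over all clusters. After quantile normalization the higher share of all calls went from 34.5% to 45.1% in the first comparison and from 41.3% to 53.2% in the second. No single array, when left out, changed either count of members.

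**Figure D1:**
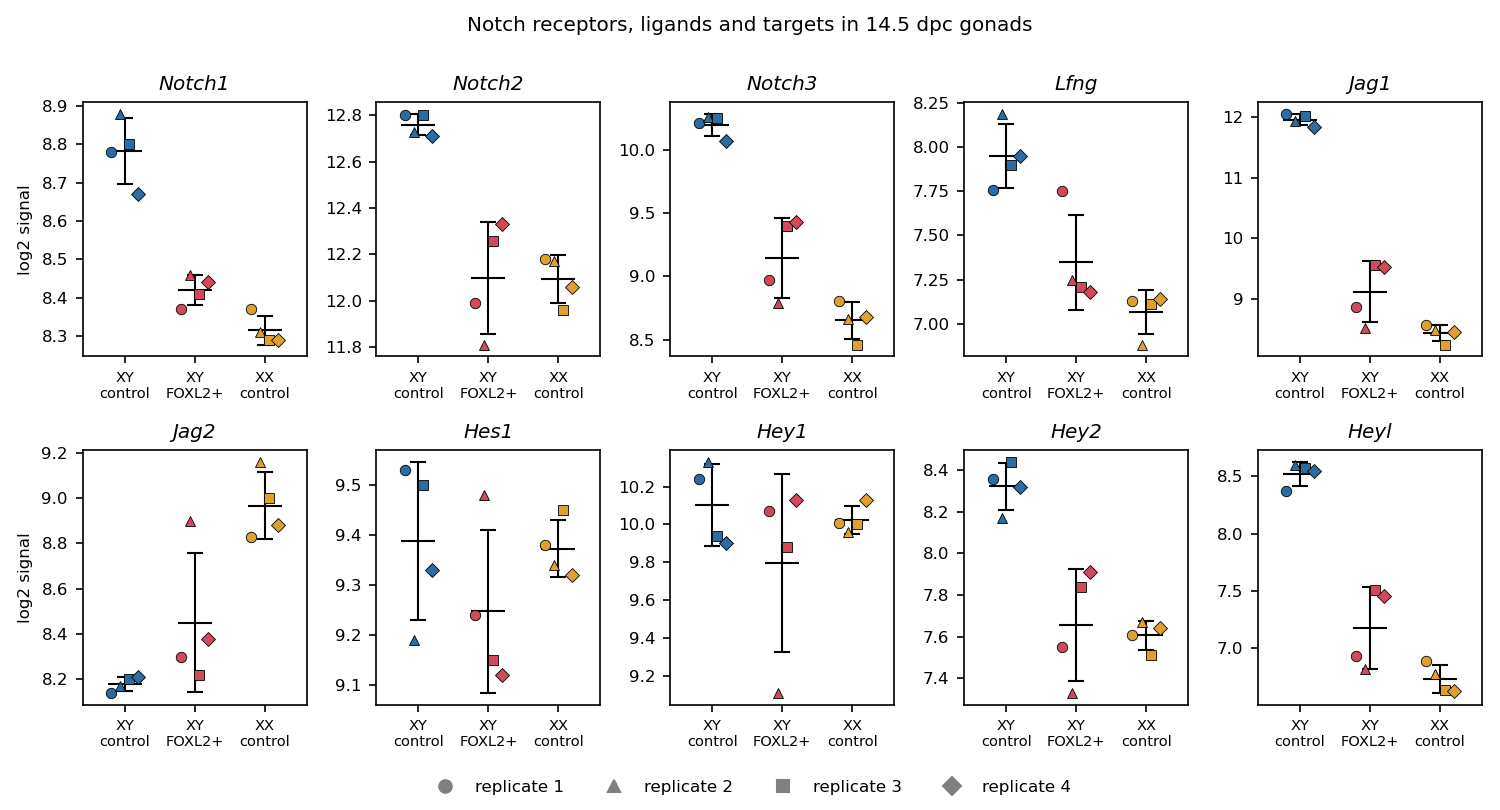
Log2 signal of the 10 genes on each array, by group, with the mean and SD of 4 arrays as bars and a symbol shape for each replicate number. The vertical axes differ between panels and do not start at 0. Jag1 lies at 11.83 to 12.05 in XY controls and at or below 9.56 in both other groups, while Hes1 and Hey1 overlap in all 3 groups.

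The promoters of Jag1 and Notch3, a ligand and a receptor that fell, and of Lfng and Hey2, which fell as well, are shown because Notch acts on its targets through RBPJ at such sequences. Each is the 250 bases before the RefSeq start, 5′ to 3′ on the gene's strand (RefSeq, GRCm38.p6), at chr2:137116521-137116770 (minus strand), chr17:32166891-32167140 (minus strand), chr5:140607091-140607340 (plus strand) and chr10:30842784-30843033 (minus strand). Capitals mark the core letters of an RBPJ site, TGGGAA. Both strands were searched, so the same letters read from the opposite strand, TTCCCA, are marked as well.
Jag1: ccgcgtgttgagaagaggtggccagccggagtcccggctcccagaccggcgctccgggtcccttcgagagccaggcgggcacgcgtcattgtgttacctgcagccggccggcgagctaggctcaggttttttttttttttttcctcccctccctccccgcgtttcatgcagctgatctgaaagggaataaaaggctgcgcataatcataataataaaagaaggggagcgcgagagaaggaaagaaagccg
Notch3: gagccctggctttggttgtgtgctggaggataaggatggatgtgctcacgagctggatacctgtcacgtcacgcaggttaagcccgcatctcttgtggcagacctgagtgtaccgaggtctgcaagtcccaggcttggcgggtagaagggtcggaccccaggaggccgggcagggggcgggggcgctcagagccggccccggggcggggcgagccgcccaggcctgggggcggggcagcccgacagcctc
Lfng: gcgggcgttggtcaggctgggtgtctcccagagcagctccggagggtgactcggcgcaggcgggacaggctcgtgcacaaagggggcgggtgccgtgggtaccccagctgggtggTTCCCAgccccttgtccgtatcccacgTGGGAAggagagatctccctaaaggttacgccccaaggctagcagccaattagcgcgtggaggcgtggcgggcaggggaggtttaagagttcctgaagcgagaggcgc
Hey2: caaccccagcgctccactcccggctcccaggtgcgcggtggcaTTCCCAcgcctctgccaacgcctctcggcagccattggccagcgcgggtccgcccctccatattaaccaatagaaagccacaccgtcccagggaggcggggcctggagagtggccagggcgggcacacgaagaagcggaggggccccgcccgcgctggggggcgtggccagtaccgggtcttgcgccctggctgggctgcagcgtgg
The promoter table matched 7 of the 10 genes, not Hes1, Hey1 and Heyl. Among the 7, Lfng held 2 matches, on opposite strands and beginning 135 and 108 bases before the start, and Hey2 held 1, at 207 bases. Jag1, Jag2, Notch1, Notch2 and Notch3 held none. Of 32851 promoter windows of the same length, 21.6% held at least 1 match and 2.77% at least 2. The forkhead core TAAACA, the kind of site that FOXL2 and its relatives bind, was searched on both strands in the same way. It was in none of the 7 windows and in 3952 of the 32851. A match, or its absence, describes these letters in this window and is no measure of binding.

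All 3 receptors fell, Notch3 by the most. Notch3, known as the receptor of pericytes and vascular smooth muscle and also found in interstitial cells, read 10.21, 10.26, 10.25 and 10.07 in XY controls, 8.97, 8.79, 9.40 and 9.43 in XY FOXL2+ and 8.81, 8.66, 8.46 and 8.68 in XX controls. XY controls stood above both other groups on every array, and XY FOXL2+ replicates 1, 3 and 4 stood above all XX controls. The difference from XY controls was -1.05 in XY FOXL2+ (SE 0.14, adjusted p = 0.000516), a 2.07-fold fall, and -1.55 in XX controls (SE 0.14, 1e-05), where a bare value after an SE is the adjusted p.

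Notch2, a receptor of granulosa and interstitial cells, read 12.80, 12.73, 12.80 and 12.71 in XY controls, 11.99, 11.81, 12.26 and 12.33 in XY FOXL2+ and 12.18, 12.17, 11.96 and 12.06 in XX controls. The XY FOXL2+ arrays straddled the XX arrays. The falls were nearly alike, -0.67 in XY FOXL2+ (SE 0.11, adjusted p = 0.00275) and -0.67 in XX controls (SE 0.11, 0.000864). Notch1, whose product acts in endothelial cells among others, changed least of the 3. It read 8.78, 8.88, 8.80 and 8.67 in XY controls, 8.37, 8.46, 8.41 and 8.44 in XY FOXL2+ and 8.37, 8.31, 8.29 and 8.29 in XX controls. The groups did not overlap with XY controls, but the fall of 1.28-fold was small (-0.36, SE 0.07, adjusted p = 0.00887 in XY FOXL2+, and -0.47, SE 0.07, 0.000591 in XX controls). The Notch1 call in XY FOXL2+ was lost after quantile normalization (-0.26, 0.0645) and with the fit limited to the compared groups (0.0542).

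Lfng encodes Lunatic fringe, which adds sugars to Notch receptors and so shifts their response from Jagged toward Delta ligands. It read 7.76, 8.19, 7.90 and 7.95 in XY controls, 7.75, 7.25, 7.21 and 7.18 in XY FOXL2+ and 7.13, 6.88, 7.11 and 7.14 in XX controls. Replicate 1 of XY FOXL2+ lay just under the lowest XY control, while its other 3 arrays lay close above the XX controls. Lfng fell by 0.60 in XY FOXL2+ (SE 0.13, adjusted p = 0.0145) and by 0.88 in XX controls (SE 0.13, 0.000439). Its XX level of 7.07 ± 0.12 (SD, n = 4) is one at which silent genes read, so the size of the 1.85-fold difference between the controls is not exact. The XY FOXL2+ call was lost after quantile normalization (0.0698), with only the compared groups fitted (0.0562) and without XY FOXL2+ replicates 3 and 4 (-0.45, 0.0855), and the fall was -0.74 without replicate 1.

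Of the ligands, Jag1 fell by the most of all 10 genes. Jag1 read 12.05, 11.94, 12.01 and 11.83 in XY controls, 8.87, 8.52, 9.56 and 9.52 in XY FOXL2+ and 8.56, 8.49, 8.24 and 8.45 in XX controls. Every XY FOXL2+ array lay over 2 log2 units below the lowest XY control, and replicate 2 lay within the range of the XX controls. The fall was 7.17-fold in XY FOXL2+ (-2.84, SE 0.20, adjusted p = 2.03e-06) and 11.5-fold in XX controls (-3.52, SE 0.20, 2.66e-07). Leaving out single arrays or pairs, or changing the normalization or the model, moved the XY FOXL2+ difference between -3.26 and -2.42, with adjusted p at most 0.000164.

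Jag2 went the other way. It read 8.14, 8.17, 8.20 and 8.21 in XY controls, 8.30, 8.90, 8.22 and 8.38 in XY FOXL2+ and 8.83, 9.16, 9.0 and 8.88 in XX controls. The XX controls were all above the XY controls, and XY FOXL2+ replicate 2 alone reached the XX range. Jag2 was higher in XX than in XY controls by 0.79 (SE 0.13, adjusted p = 0.00107), a 1.73-fold difference. In XY FOXL2+ the difference from XY controls was 0.27 (SE 0.13, 95% confidence interval -0.02 to 0.56, adjusted p = 0.29) and did not pass, although the lowest XY FOXL2+ array, at 8.22, was just above the highest XY control, at 8.21.

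**Figure D2:**
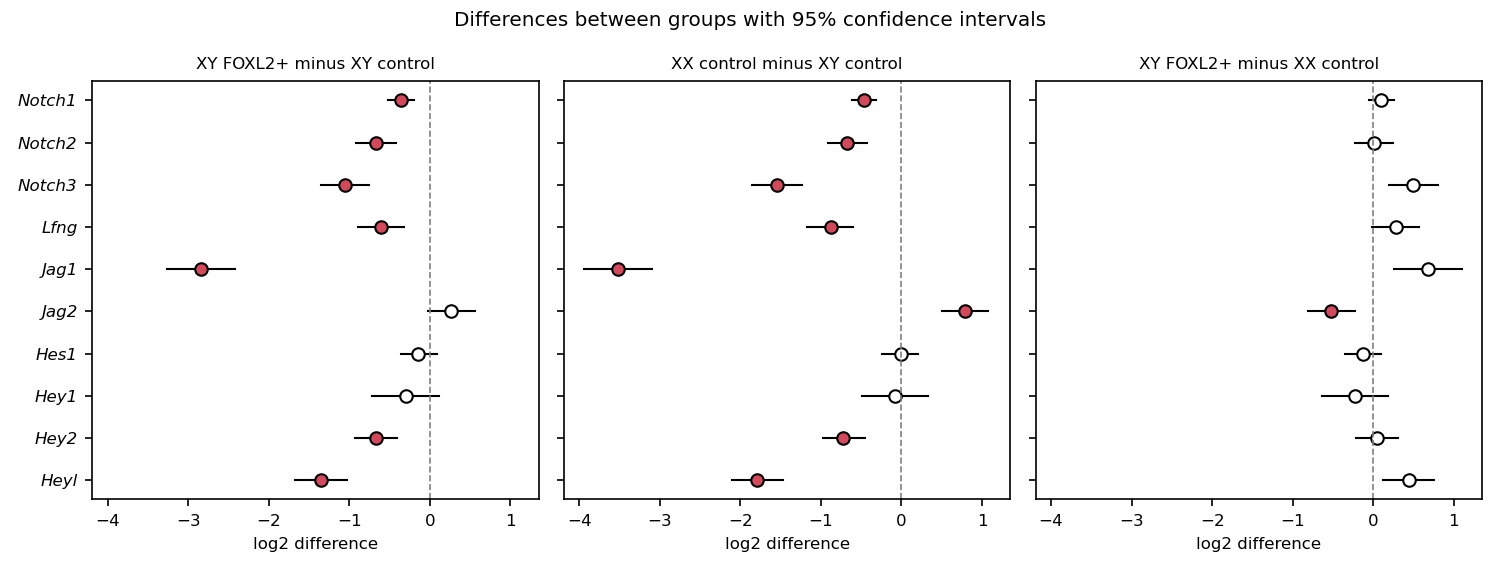
Log2 difference of each of the 10 genes in the 3 comparisons (points) with its 95% confidence interval from the limma fit (lines, 4 arrays a group); filled points have an adjusted p below 0.05. Jag1 has the largest difference in the first and second panels, -2.84 and -3.52, and only Jag2 is filled in the third, at -0.52.

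Among the targets, Heyl and Hey2 fell and Hes1 and Hey1 did not pass. Heyl, a repressor known as a target of NOTCH3 in mural cells, read 8.37, 8.60, 8.57 and 8.55 in XY controls, 6.93, 6.82, 7.51 and 7.46 in XY FOXL2+ and 6.89, 6.78, 6.64 and 6.63 in XX controls. All XY FOXL2+ arrays were below the XY controls, and replicate 2 lay inside the XX range. The change was -1.35 in XY FOXL2+ (SE 0.15, adjusted p = 0.000105) and -1.79 in XX controls (SE 0.15, 5.07e-06). The XX mean of 6.74 lies among the levels of silent genes and the XY FOXL2+ mean of 7.18 just above them, so the folds of 2.54 and 3.45, and the Heyl differences from XX controls given below, are not exact.

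Hey2, a repressor that acts in arterial endothelium and in heart muscle, read 8.36, 8.17, 8.44 and 8.32 in XY controls, 7.55, 7.33, 7.84 and 7.91 in XY FOXL2+ and 7.61, 7.67, 7.51 and 7.64 in XX controls. Both groups lay below all XY controls, and the XY FOXL2+ arrays spread to both sides of the XX range. The falls were -0.67 in XY FOXL2+ (SE 0.12, adjusted p = 0.00473) and -0.72 in XX controls (SE 0.12, 0.00101).

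Hes1, a repressor that answers to Notch and to other signals, read 9.53, 9.19, 9.50 and 9.33 in XY controls, 9.24, 9.48, 9.15 and 9.12 in XY FOXL2+ and 9.38, 9.34, 9.45 and 9.32 in XX controls. The 3 groups overlapped. The difference of XY FOXL2+ from XY controls was -0.14 with a 95% confidence interval of -0.36 to 0.09 (adjusted p = 0.532), and that of XX controls was -0.01, with an interval of -0.24 to 0.21 (0.959). Hey1, the relative of Hey2 found in endothelium and interstitium, read 10.24, 10.33, 9.94 and 9.90 in XY controls, 10.07, 9.11, 9.88 and 10.13 in XY FOXL2+ and 10.01, 9.96, 10 and 10.13 in XX controls. Its groups overlapped too, with XY FOXL2+ replicate 2 below all other arrays. The difference was -0.30 in XY FOXL2+ (95% confidence interval -0.72 to 0.11, adjusted p = 0.424), and -0.07 without replicate 2. In XX controls it was -0.08 (interval -0.49 to 0.33, 0.86).

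Counted by arrays, every XY FOXL2+ array was below every XY control for 7 of the 10 genes and above it for 1, Jag2, where 6.97% and 5.23% of all clusters separated in these directions. After quantile normalization 6 were below and 1 above. The shares of all clusters here and in the next paragraph are for the values as deposited only. XX controls were entirely below XY controls for 7 of the genes and above for 1, where 14.8% and 10.5% of all clusters were.

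Between XY FOXL2+ and XX controls 1 of the 10 genes passed. Jag2 was lower in XY FOXL2+ by 0.52 (SE 0.13, adjusted p = 0.0413), where 2.64% of all clusters were lower and 2.87% higher. That call was lost under 13 of 20 alternatives, among them the omission of any control array and of XY FOXL2+ replicates 1, 3 or 4. The adjusted p was between 0.0559 and 0.252 in those 13, and the lowest over all 20 was 0.000821. Jag1 (0.68, 95% confidence interval 0.26 to 1.10, adjusted p = 0.0652), Notch3 (0.50, interval 0.20 to 0.80, 0.058) and Heyl (0.44, interval 0.12 to 0.76, 0.114) were above the XX controls on average without passing. These 3 passed without XY FOXL2+ replicate 2 (Jag1 0.88, 0.00376; Notch3 0.62, 0.00892; Heyl 0.56, 0.0231) and without replicates 1 and 2, where they were 1.10, 0.77 and 0.75. Without replicates 3 and 4 none of the 10 passed. Notch2 (0.01, interval -0.23 to 0.25), Hey2 (0.05, interval -0.21 to 0.31) and Notch1 (0.10, interval -0.05 to 0.26) had the narrowest gaps to XX controls among the genes that fell, and Lfng stood at 0.28 (interval -0.01 to 0.57), with every XY FOXL2+ array at or above 7.18 and every XX control at or below 7.14. Lfng was the 1 gene of the 10 whose arrays separated upward in this comparison and none separated downward, where 6.63% and 4.82% of all clusters did, and after quantile normalization none separated. The Lfng level in XX controls is one at which silent genes read, so the size of this Lfng difference is not exact.

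The XY FOXL2+ arrays differed among themselves, and 5 of the 10 genes had the same pair of arrays on top. Replicates 3 and 4 were the 2 highest of the group in 5 of the 10 genes, Jag1, Heyl, Notch3, Notch2 and Hey2, as they were in 27.7% of all clusters and in 50.2% of the 3077 clusters called lower in XY FOXL2+. The highest pair was replicates 2 and 4 in Notch1 and Jag2, 1 and 2 in Lfng and Hes1, and 1 and 4 in Hey1. Replicate 2 was the lowest in 6 of the genes, the same 5 and Hey1, against 28.9% of all clusters and 34.1% of those called lower. Replicate 2 also had the highest Foxl2 signal, 8.62, and replicates 3 and 4 the lowest, 7.18 and 6.72. With 4 arrays no relation to Foxl2 was computed, and this order was noticed after the values were seen. The range over the XY FOXL2+ arrays was wider than in both controls for 9 of the 10 genes, all but Notch1, and for 51.9% of all clusters. In Jag1 it was 1.04, where XY controls spanned 0.23 and XX controls 0.32.

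**Figure D3:**
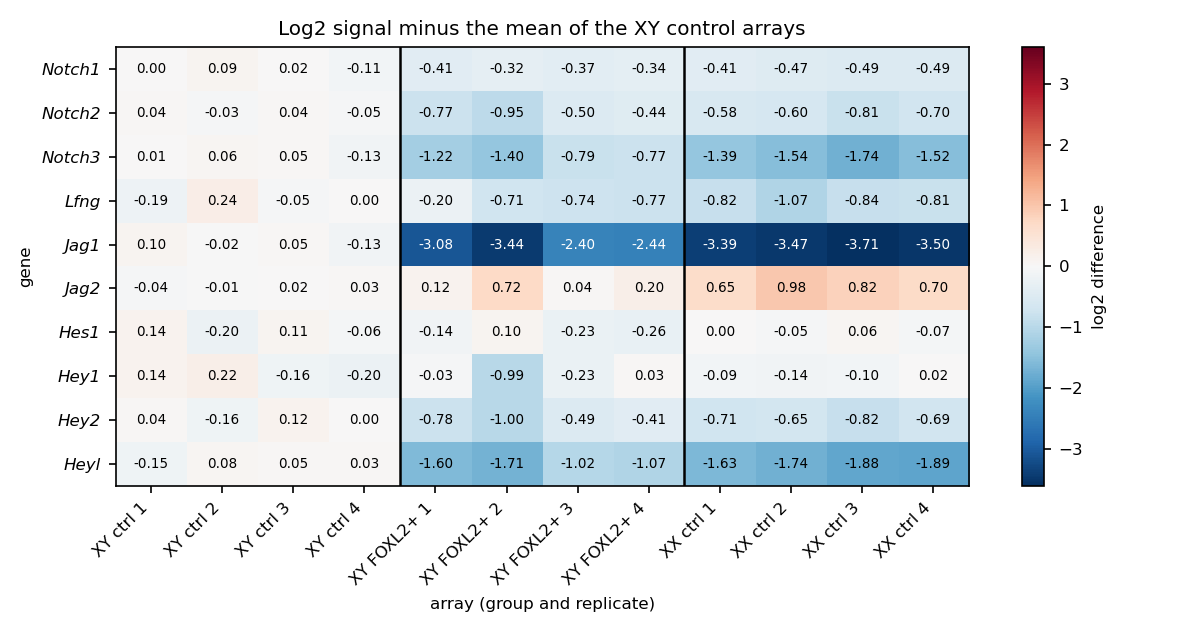
Log2 signal of each of the 10 genes (rows) on each of the 12 arrays (columns) after the mean of the XY control arrays was subtracted, with the value printed in each cell and colour from blue (lower) to red (higher). In the Jag1 row XY FOXL2+ replicates 1 and 2 read -3.08 and -3.44, and replicates 3 and 4 read -2.40 and -2.44.

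Whole gonads were measured, so fewer cells of a type and less RNA per cell cannot be told apart. Lists of marker genes for the cells of the gonad also differed between the groups, some lower and some higher in XY FOXL2+ than in XY controls. Pericyte and smooth muscle markers, the cells known for Notch3 and Heyl, lay between 9.44 and 9.78 on the XY control arrays, between 8.66 and 8.97 on the XY FOXL2+ arrays and between 8.28 and 8.67 on the XX control arrays (mean log2 signal of the 10 listed genes). Of those 10, 7 were lower and 1 higher in XY FOXL2+ than in XY controls, and 7 were lower in XX controls. Pdgfrb, the receptor that marks pericytes and other mesenchyme, fell by 1.44 (SE 0.13, adjusted p = 2.69e-05) and Rgs5, a pericyte marker, by 1.44 (4.81e-05), while Abcc9, another, rose by 0.82 (0.0146). The 2 that did not pass in XY FOXL2+ were Kcnj8 (0.57, adjusted p = 0.0973) and Des (-0.21, 0.292). Interstitial progenitor markers ran from 12.07 to 12.31, 11.0 to 11.8 and 10.58 to 10.93 in the same order of groups, with 3 of 5 measured genes lower and 1 higher in XY FOXL2+, and 4 lower in XX controls. Fetal Leydig cell markers ran from 14.36 to 14.77, 7.38 to 10 and 7.29 to 7.49, with all 5 measured genes lower in both. Sertoli cell markers ran from 10.65 to 10.89, 7.66 to 9.36 and 6.95 to 6.98, with 8 of 10 lower in XY FOXL2+ and 9 in XX controls. In these last 3 lists XY FOXL2+ replicates 3 and 4 were the highest of their group and replicate 2 the lowest, as in Jag1. The mean of the pericyte and smooth muscle list had another order, with replicate 1 highest (8.97) and replicate 2 lowest (8.66), but its genes differed in this. In Pdgfrb, Cspg4 and Acta2 replicates 3 and 4 were highest and replicate 2 lowest, as in Notch3 and Heyl. The other genes of the list had other orders.

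Endothelial markers went both ways in XY FOXL2+, and none was called lower than in XY controls. XY controls lay between 9.10 and 9.34, XY FOXL2+ between 9.28 and 9.49 and XX controls between 8.95 and 9.20, with 3 of 11 measured genes higher and none lower in XY FOXL2+ and 5 lower and 1 higher in XX controls. The 3 that rose in XY FOXL2+ were Emcn (0.76, adjusted p = 0.022), Cldn5 (0.73, 0.00739), a tight junction gene, and Ramp2 (0.54, 0.0253). Cdh5, the cadherin of endothelial junctions, was at -0.19 (adjusted p = 0.338) in XY FOXL2+, and Pecam1 at 0.06 (0.783). Flt1 (-0.23, 0.123), Sox17 (-0.19, 0.191) and Esam (-0.07, 0.669) were lower on average without passing. Tek (0.34, 0.117), Tie1 (0.20, 0.279) and Kdr (0.14, 0.633) were higher on average without passing. Fetal granulosa cell markers ran from 7.31 to 7.40, 7.86 to 9.57 and 9.93 to 10.24, with 5 of 10 higher in XY FOXL2+ and all 10 in XX controls, and in XY FOXL2+ replicate 2 was highest, as in Jag2. Meiotic germ cell markers ran from 8.90 to 9.29, 11.23 to 13.44 and 13.12 to 13.40, with all 8 higher in both, and general germ cell markers from 11.13 to 11.67, 10.36 to 11.22 and 10.73 to 11.27, with 2 of 8 lower in XY FOXL2+ and 3 lower and 1 higher in XX controls. Macrophage, mesonephric and erythroid markers had 4 of 6, 1 of 6 and 0 of 4 genes higher and 0, 2 and 0 lower in XY FOXL2+. What part these cells have in the Notch results was not tested.

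**Figure D4:**
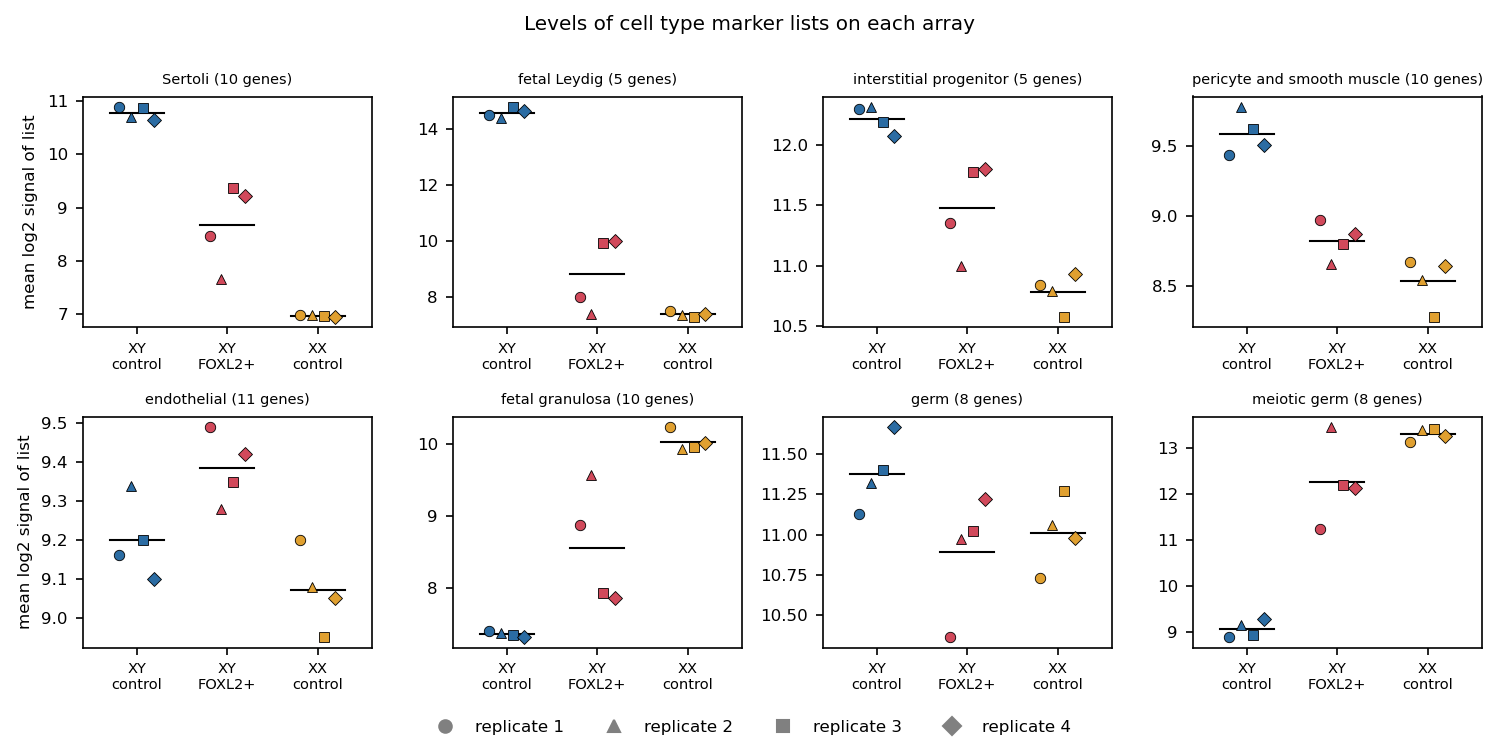
Mean log2 signal of the measured genes of 8 marker lists on each array, by group, with a symbol shape for each replicate number and a line at the group mean; the vertical axes differ and do not start at 0. Sertoli, fetal Leydig, interstitial progenitor and pericyte and smooth muscle lists are lower on every XY FOXL2+ array than on every XY control.

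Most other genes of the Notch pathway did not pass. Of 53 further genes analysed by role, in XY FOXL2+ against XY controls 3 rose, 4 fell and 46 did not pass, with a median difference of 0. These are 5.66% higher and 7.55% lower, beside 2.46% and 4.67% of all clusters. In XX against XY controls 10 were higher and 5 lower, or 18.9% and 9.43%, beside 7.17% and 10.2% of all clusters, with a median difference of 0.01. Between XY FOXL2+ and XX controls 2 were higher and 5 lower, or 3.77% and 9.43%, beside 2.87% and 2.64%. Shares were larger among the 32978 clusters above the median signal, fitted alone. There 1677 were higher and 3204 lower in the first comparison, 4513 and 6259 in the second, and 1909 and 1988 in the third. Of the 53, 12 had all 3 group means at or below 7.07, the highest mean of a silent gene, so for these a miss says nothing. None of the other receptor and ligand genes Notch4, Dll1, Dll3 and Dll4 passed in any comparison. Dll4, the Delta ligand of arterial and tip endothelial cells, was at -0.21 (95% confidence interval -0.42 to 0.00, adjusted p = 0.255) in XY FOXL2+, and Notch4, an endothelial receptor, at -0.07 (interval -0.22 to 0.07, 0.603). None of the 4 glycosylation genes Mfng, Rfng, Pofut1 and Poglut1 passed, nor any of the 6 other targets Hes2, Hes3, Hes5, Hes6, Hes7 and Nrarp. Dll3, Mfng and 5 of those 6 targets, all but Hes6, are among the 12 at the level of silent genes, as are Dlk2 and Dner.

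Dtx4, an E3 ubiquitin ligase of the Deltex family that acts on Notch, showed the largest change of these genes. It read 10.32, 10.39, 10.69 and 10.53 in XY controls, 8.40, 8.08, 8.79 and 8.69 in XY FOXL2+ and 8.10, 7.83, 7.66 and 7.96 in XX controls. As in Jag1, the XY FOXL2+ arrays lay far below the XY controls, with replicates 3 and 4 highest and replicate 2 lowest. It fell by 1.99 in XY FOXL2+ (SE 0.15, adjusted p = 5.66e-06) and by 2.59 in XX controls (SE 0.15, 4.03e-07), and was 0.61 higher in XY FOXL2+ than in XX controls (0.037). That last call was lost without XY FOXL2+ replicate 3 (0.105) or 4 (0.112), XX control replicate 2 (0.102), 3 (0.115) or 4 (0.0754) or XY control replicate 4 (0.0526). Dtx1, of the same family, fell by 0.44 in XY FOXL2+ (0.0078). Among the 13 genes of endocytosis and turnover these were the only calls in that comparison. In XX against XY controls Numb (0.98, 2.6e-05), an inhibitor of Notch, Mib1 (0.52, 0.000828), the ligase that activates ligands, and Itch (0.47, 0.002) were higher, and Numb was lower in XY FOXL2+ than in XX controls (-0.71, 0.00161).

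Dlk1, a non-canonical ligand-like gene that is also in the interstitial progenitor list, fell by 1.19 in XY FOXL2+ (SE 0.12, adjusted p = 3.98e-05) and by 1.31 in XX controls. Dlk2 and Dner did not pass. Of 8 cleavage genes, Adam10, a protease that cuts the receptor, rose by 0.53 in XY FOXL2+ (SE 0.10, adjusted p = 0.00815) and was 0.99 higher in XX than in XY controls (3.31e-05). Aph1a, a gamma-secretase subunit, fell by 0.41 (0.0219) and 0.57 (0.00104), and Aph1b was higher in XX controls (0.44, 0.0255). In the nuclear complex Rbpj did not pass (0.16, 95% confidence interval -0.02 to 0.34, adjusted p = 0.317 in XY FOXL2+, and 0.25, 0.0505 in XX controls). Among coactivator genes, Maml3 rose by 0.32 in XY FOXL2+ (0.0395) and 0.42 in XX controls (0.00402), while Maml2 (-0.57, 0.000785) and Crebbp (-0.36, 0.0233) were lower in XX controls. Maml2 was 0.45 higher in XY FOXL2+ than in XX controls (0.0135).

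Of 8 corepressor genes 4 were higher in XX than in XY controls, Kdm5a (1.04, adjusted p = 0.000273), Tle2 (0.77, 0.00132), Hdac1 (0.51, 0.00437) and Spen (0.27, 0.0221). In XY FOXL2+ Hdac1 alone passed (0.39, 0.0443), and this gene is uncertain. Its values come from the brighter of 2 clusters with this symbol, whose identifier places it on chromosome 17, while RefSeq places Hdac1 on chromosome 4. The cluster on chromosome 4 did not pass in XY FOXL2+ (0.30, 0.0953) and was higher in XX controls (0.37, 0.0189). Tle2 (-0.75, 0.00628), Kdm5a (-0.55, 0.0459) and Spen (-0.43, 0.00415) were lower in XY FOXL2+ than in XX controls, as was Adam10 (-0.46, 0.022). The XY FOXL2+ calls of Aph1a, Maml3 and Hdac1, the XX control calls of Aph1b, Crebbp and Spen, and the calls of Adam10, Kdm5a and Maml2 against XX controls were each lost when certain single arrays were left out. Over all alternatives run, the Hdac1 call was lost in 14 of 20, with adjusted p up to 0.267. That of Kdm5a was lost in 13 of 20 (up to 0.222), Maml3 in 10 (0.15), Adam10 in 7 (0.179), Aph1a in 6 (0.0928) and Maml2 in 4 (0.0721). Of the XX control calls, Crebbp was lost in 7 of 18 (up to 0.18, after quantile normalization), and Aph1b (0.0759) and Spen (0.0726) in 6.

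**Figure D5:**
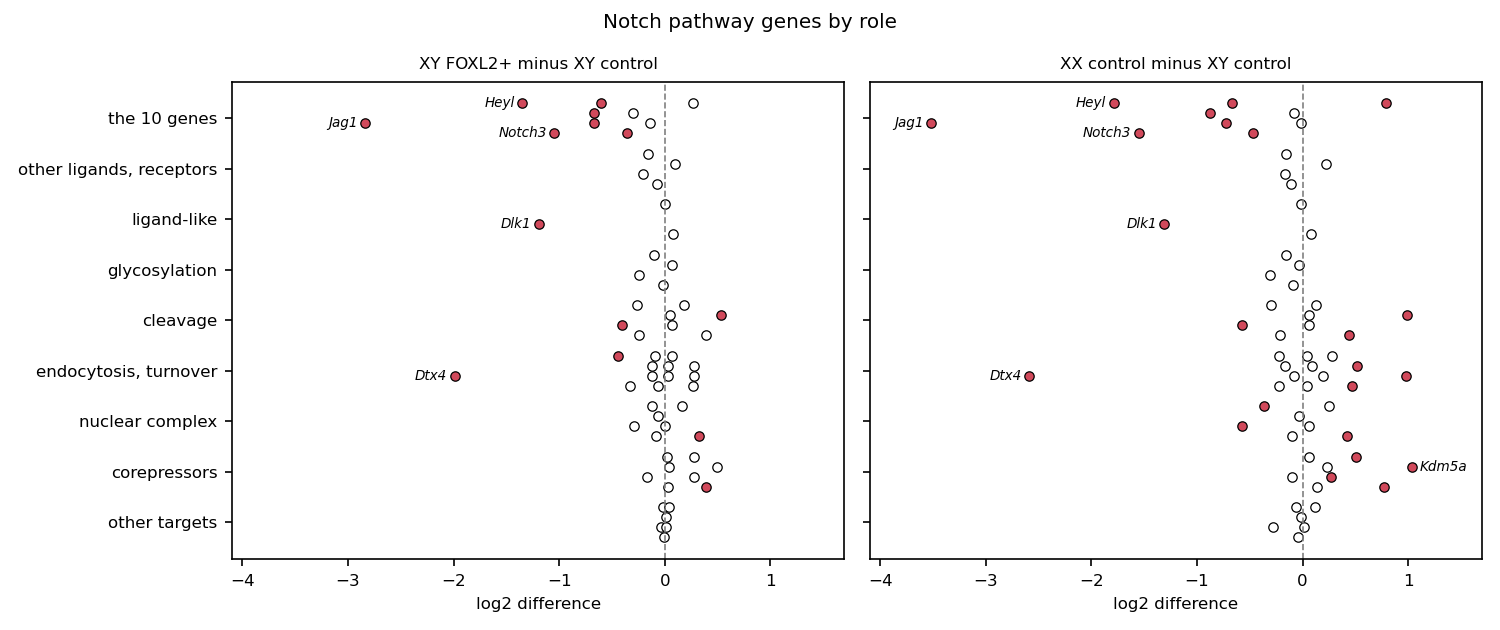
Log2 difference of each measured Notch pathway gene by role, in XY FOXL2+ minus XY control (left) and XX control minus XY control (right), where each point is a gene, filled points have an adjusted p below 0.05 and genes at least 1 from 0 are named. Beside the 10 genes in the top row, Dtx4 (-1.99 and -2.59) and Dlk1 (-1.19 and -1.31) are the lowest points.

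For the genes whose group means spanned at least 1, the named genes with the most similar course over the 12 arrays were listed, by the smallest root mean square difference on the log2 scale after each gene's own mean was removed. For Jag1 these were Gramd1b (0.188), a gene of cholesterol transport, 4930486L24Rik (0.238) and Scarb1 (0.245), the receptor that takes up cholesterol from lipoproteins. Gramd1b averaged 12.18 ± 0.15 (SD, n = 4) over the XY control arrays, 8.96 ± 0.58 over the XY FOXL2+ arrays and 8.58 ± 0.11 over the XX control arrays. For Notch3 they were Pakap (0.099), Cacna2d1 (0.106), a calcium channel subunit, and Mef2c (0.115), a transcription factor of muscle and endothelium, and for Heyl they were Rassf5 (0.107), Nav1 (0.112) and Efhd1 (0.119). These are descriptions chosen from 30702 genes, with no test.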

How the data were processed

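The deposited table holds normalized log2 signals per transcript cluster; how the authors corrected background, summarized, normalized and took logs is not stated in the labels, and base 2 was assumed from the range of the values. Per the labels, 100 ng of RNA was amplified and labelled with the WT Plus kit. Of 72688 entries, 6732 control probe sets were left out and 65956 clusters tested with no filter. Gene symbols are those of the platform table, brought up to date with RefSeq (GRCm38.p6): 31258 clusters have 1 symbol, 1492 have several and 33206 are not listed. A gene's brightest cluster stands for it. The table has no detection calls, and the number of arrays limits the precision. Whether replicates share a litter is not given.

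The tests used limma 3.58.1 under R 4.3.3 (lmFit and eBayes with an intensity trend, 1 fit over 12 arrays, 9 residual degrees of freedom, two-sided, Benjamini-Hochberg adjustment over all clusters, threshold 0.05), after tests on simulated data. The named genes are the 10 members, pathway genes that passed (up to 4 a role), and the 3 most alike genes of members whose group means span at least 1. Members and lists were chosen with earlier results of these data known. Alternatives were quantile normalization, no trend, array weights, only the compared groups, clusters above the median signal, the replicate number as a block, and leaving out each array. Those leaving out a pair of XY FOXL2+ arrays were chosen after seeing the data.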

Additional observations from a re-analysis of the deposited data

Results flagged for a closer look

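Of 33 sets of 4 arrays (the 10 genes and Foxl2 in 3 groups), 2 held an array far from the rest by Dixon's criterion for 4 values, where chance gives about 1 in 20. Both were in Lfng. XY FOXL2+ replicate 1 read 7.75, against 7.25 for the nearest array (gap over range 0.886), and XX control replicate 2 read 6.88, against 7.11 (0.877). Without XY FOXL2+ replicate 1 the Lfng difference from XY controls was -0.74 (limma adjusted p = 0.00098).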

How the results depend on the processing

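Of 580 recomputed differences of the 10 genes, rounded to 2 decimals, 537 kept their side of the threshold without a change of sign, 18 lost the call and 14 gained it. The other 11 changed sign without a call on either side: Notch2 (lowest -0.19) and Hey2 (lowest -0.17) against XX controls, and Hes1 in XX against XY controls (highest 0.07). A difference that rounded to 0.0 was not counted as a change of sign. Hey1 reached 0.0 in XX against XY controls and in XY FOXL2+ against XX controls. No called difference reversed. The block ended the Hdac1 call in XY FOXL2+ (0.054) and the Spen call in XX controls (0.056). Over the alternatives 5 to 7 genes were called in XY FOXL2+ against XY controls and 8 in XX against XY controls, with 5 called after quantile normalization and with only the compared groups. Against XX controls the count of 1 was 4 with array weights, 2 without the intensity trend, 3 among clusters above the median signal, 0 with only the compared groups, 0 to 4 without single arrays, 4 without XY FOXL2+ replicates 1 and 2, and 0 without replicates 3 and 4. With the replicate block the counts were 7, 8 and 1; same-numbered arrays correlated at -0.091 to 0.179, so the numbers were not taken as pairs. Over all clusters the first comparison gave 4698 calls, 2700 with only the compared groups, 3124 to 5392 without single arrays (3124 without XY control replicate 3) and 8318 without XY FOXL2+ replicates 3 and 4. XX against XY controls gave 11459, and 8986 to 13714 without single arrays. XY FOXL2+ against XX controls gave 3635, 6752 with array weights, 1916 with only the compared groups, 8343 without XY FOXL2+ replicates 1 and 2, 1855 without 3 and 4, and 2012 to 5992 without single arrays. Foxl2 differed by 1.60 to 2.80 over all alternatives and by 1.84 to 2.47 without single arrays. The causes were not tested. No member had a second cluster, so that alternative was not run.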
